A study of Rattus norvegicus with 6 samples.

Results

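The miRNAs described here are 6 mature rat miRNAs grouped as liver, red-cell and serum-borne miRNAs. They are rno-miR-122-5p, rno-miR-192-5p, rno-miR-486, rno-miR-144-5p, rno-miR-16-5p and rno-miR-423-5p (rno- marks rat and is left out from here on). This grouping does not mean that they are made in those sources alone. They were chosen by name, with earlier results of these data known, under a rule that expected little of them in stromal cells. That expectation was not tested here and need not hold for each of them. All 6 were found among the 197 annotated mature sequences of the table. They were measured by small RNA sequencing of extracellular vesicles, the membrane-bound particles that cells release into the medium. The vesicles came from bone marrow mesenchymal stromal cells (BMSCs), adherent cells flushed from the femurs and tibias of male SD rats aged 4 weeks. Both groups had medium with 10% fetal bovine serum and penicillin-streptomycin at 37 degrees and 5% CO2. The hypoxia group was kept at 1% oxygen (3 libraries) and the normoxia control at 21% oxygen (3 libraries). Neither the time at 1% oxygen nor any removal of vesicles from the serum is given in the sources used here. No label says whether libraries of the same group differ in animal or culture, so a p-value here covers the spread from library to library, which could be technical.

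A miRNA is cut from a hairpin transcript, loaded into an Argonaute protein, and pairs with messenger RNAs through its seed, bases 2 to 8 from the 5′ end. Most miRNAs are made in many tissues, but a few are so concentrated in 1 cell type that their level in a body fluid is read as a sign of that source. In liver, miR-122-5p is the dominant miRNA of hepatocytes and acts on cholesterol and lipid metabolism, and miR-192-5p is a p53-responsive miRNA of liver, gut and kidney. In maturing red cells the gene that holds miR-144 and miR-451 is switched on by GATA1, miR-486 is made from the Ank1 locus, and miR-16-5p, a brake on cyclins and BCL2, is retained at high levels. miR-423-5p is present in many tissues and circulates in serum. Vesicle preparations from cells grown in serum can carry miRNAs of the serum itself, and marrow flushes contain blood cells.

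The 6 mature sequences are shown because the measurement consists of reads assigned to them, and because their seeds decide which of them belong to 1 target family. They are written 5′ to 3′ as in the deposited table, with the seed in capitals.
miR-122-5p: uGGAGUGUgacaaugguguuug
miR-192-5p: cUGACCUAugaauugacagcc
miR-486: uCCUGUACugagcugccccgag
miR-144-5p: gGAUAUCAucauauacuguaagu
miR-16-5p: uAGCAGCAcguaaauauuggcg
miR-423-5p: uGAGGGGCagagagcgagacuuuu
No 2 of these seeds are alike. The sequences ran from 21 bases (miR-192-5p) to 24 bases (miR-423-5p), and their GC content from 30.4% (miR-144-5p) to 63.6% (miR-486), against a median of 47.6% over the 197 annotated sequences. RefSeq held an identical sequence for 5 of the 6. In its build GRCr8, which is not the rn6 build named by the submitters, miR-122-5p lies at chr18:61028831-61028852 (+), where Mir3591 overlaps it on the opposite strand, and miR-192-5p at chr1:212994232-212994252 (+), where Mir194-2 is within 10 kb. miR-144-5p lies at chr10:63459409-63459431 (+), where Mir451a is within 10 kb. miR-16-5p, at chr2:155555343-155555364 (+), lies inside the gene Smc4, and miR-423-5p, at chr10:62412317-62412340 (-), inside Nsrp1.

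The libraries held 106954 to 248542 counts and listed 85 to 183 of 311 distinct mature sequences. Hypoxia replicate 1 stood apart. It listed the fewest sequences, 85, and left blank 25 of the 81 sequences that all 5 other libraries list, while no other library left blank more than 5 of those that its 5 counterparts list. Among the 25 were miR-192-5p, miR-486 and miR-16-5p. For the labelled cell type, 16 miRNAs known from mesenchymal stromal cells were looked up. All 16 had a row and 12 were listed in all 6 libraries, led by miR-21-5p at 20.4 to 34.6% of counts. The scarcest, miR-222-3p, had 21 counts in all, from 2 hypoxia libraries. No other cell type was compared on this list, so it does not test the label.

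Together the 6 miRNAs took 0.784 ± 0.161% of all counts in the hypoxia libraries and 0.831 ± 0.342% in the normoxia libraries (SD, n = 3 each). The largest part was miR-122-5p, which made up 72.8 to 85.6% of their summed counts in each library. The combined share was 1.23% in normoxia replicate 1 and 0.970% in hypoxia replicate 1, the shallowest libraries of the 6, with totals of 106954 and 118683. It lay between 0.631% and 0.696% in the other 4. The part of depth in these shares was not tested. A share of counts is relative to all other miRNAs in the library, and fewer vesicles from a source cannot be told apart from less of a miRNA per vesicle.

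The levels of the 6 differed widely. Levels are given as CPM, the count relative to the library total, scaled by TMM factors, which correct for differences in composition between libraries. A read covers a whole mature miRNA, so counts were not divided by length, and the efficiency with which each sequence enters a library was not measured. By mean level over the 6 libraries the order was miR-122-5p (6148 CPM), miR-423-5p (899 CPM), miR-486 (411 CPM), miR-192-5p (292 CPM), miR-16-5p (228 CPM) and miR-144-5p (58.8 CPM). Only the first step was clear of the spread between libraries. The lowest value of miR-122-5p, 5126 CPM, was above the highest of miR-423-5p, 1468 CPM, while the ranges of all other neighbours overlapped. miR-423-5p was nevertheless above miR-486 in 6 of 6 libraries, whereas miR-486 was above miR-192-5p in 4 of 6 and miR-192-5p above miR-16-5p in 3 of 6.

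**Figure D1:**
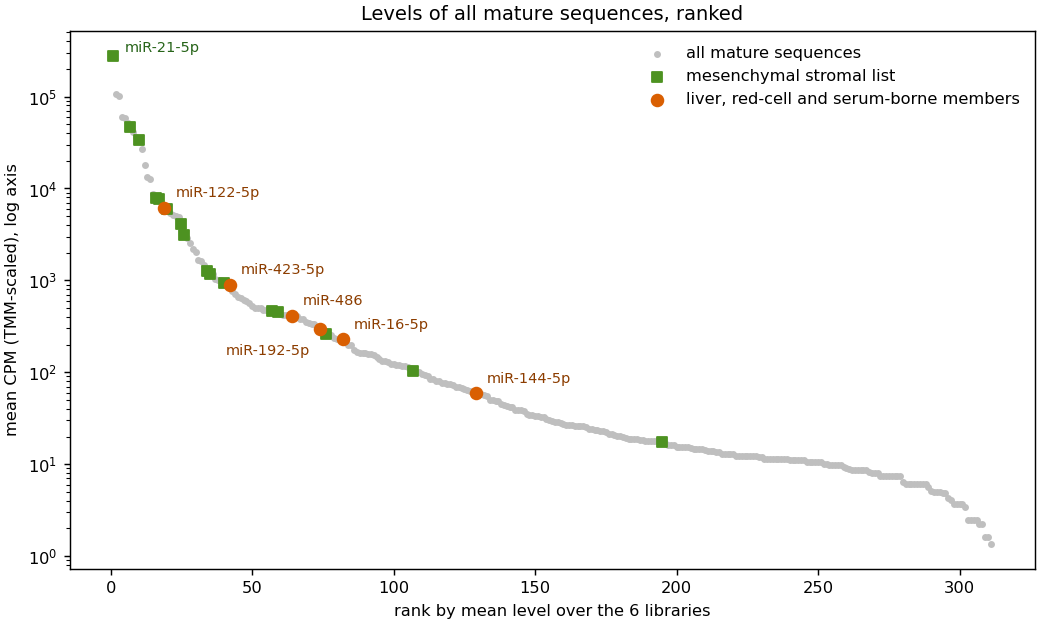
Mean level of each of the 311 mature sequences (TMM-scaled CPM, log axis) against its rank, with the 6 liver, red-cell and serum-borne miRNAs in orange and the 16 stromal list miRNAs in green. miR-122-5p, at rank 19, sits among the abundant stromal miRNAs, and the other 5 lie between rank 42 and rank 129.

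Set beside the stromal list, miR-122-5p was not scarce. It ranked 19 of 311 sequences by mean level and stood above 11 of the 16 stromal list miRNAs. The next in rank was miR-143-3p, a miRNA of smooth muscle and stromal cells, at 6031 CPM. Both had a summed count of 6096. Their ranges overlapped, at 5126 to 9377 CPM for miR-122-5p and 3285 to 8783 CPM for miR-143-3p. The order of these 2 was therefore not clear of the spread between libraries. The most abundant stromal miRNA, miR-21-5p, had a mean level 45.3-fold that of miR-122-5p and 4734-fold that of miR-144-5p. miR-423-5p stood above 5 of the 16, miR-486 and miR-192-5p above 3 each, miR-16-5p above 2 and miR-144-5p above 1.

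The liver miRNAs were led by miR-122-5p, which was listed in all 6 libraries. Its counts were 934, 728 and 1302 in hypoxia replicates 1 to 3 and 968, 1110 and 1054 in normoxia replicates 1 to 3. As a share of the library this was highest in normoxia replicate 1, at 0.905% (95% exact binomial interval 0.849 to 0.964%), and next highest in hypoxia replicate 1, at 0.787% (0.737 to 0.839%). The other 4 libraries lay between 0.464% and 0.540%, so the libraries that stood out came from both groups and the groups overlapped. Within each library miR-122-5p ranked between 16 and 22. Each binomial interval uses a single library, so it leaves out the spread between libraries. Reads that carry no molecular identifier are not independent molecules, so it may be too narrow even for the error of counting. The mean level was 5651 ± 583 CPM with hypoxia and 6646 ± 2370.0 CPM with normoxia (SD, n = 3 each).

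The other liver miRNA, miR-192-5p, was far scarcer. It had no listed count in hypoxia replicate 1, 71 and 60 in hypoxia replicates 2 and 3, and 47, 19 and 90 in the normoxia libraries. Its highest shares were 0.0486% in hypoxia replicate 2 and 0.0439% in normoxia replicate 1, and the lowest listed one 0.00925% in normoxia replicate 2, so the groups overlapped. miR-122-5p did not keep a fixed ratio to it, with 10.3 to 58.4 counts of miR-122-5p for each count of miR-192-5p in the 5 libraries that list both. miR-194-5p, which is made from the same transcripts as miR-192-5p, had 16 counts in hypoxia replicate 2 and none listed elsewhere. Of the 9 miRNAs of the liver list, 5 had a row. Besides the 3 above these were miR-101a-3p, with 24 and 50 counts in hypoxia replicates 2 and 3, and miR-148a-3p, with 6 counts in hypoxia replicate 2, both of which are found in many tissues.

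**Figure D2:**
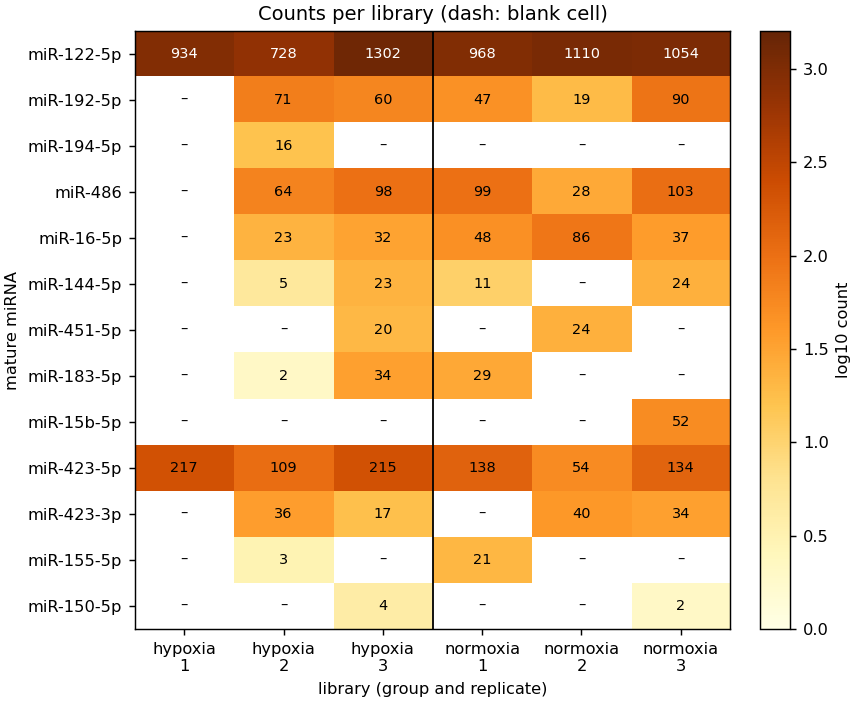
Counts of the 6 miRNAs and of 7 related ones (arm and cluster partners, miR-183-5p, miR-155-5p and miR-150-5p) in each library, coloured by log10 count, with a dash for a blank cell. miR-122-5p and miR-423-5p have counts in every library, hypoxia replicate 1 lists none of the others shown, and miR-451-5p is listed in 2 of 6. Some list members that are not shown have counts in hypoxia replicate 1. They are miR-146a-5p (71), miR-126a-3p (81), miR-191a-5p (290) and miR-320-3p (18226).

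Of the red-cell miRNAs, miR-486 was the most abundant. It had no listed count in hypoxia replicate 1, 64 and 98 in hypoxia replicates 2 and 3, and 99, 28 and 103 in the normoxia libraries. Scaled for depth, normoxia replicate 1 was the highest at 959 CPM and normoxia replicate 2 the lowest that lists it at 137 CPM, both in the same group, and the groups overlapped. miR-486 is also made in striated muscle. Of 2 muscle miRNAs, picked after their values were seen, miR-1b took 1.66% of counts in hypoxia replicate 1, where miR-486 is blank, and 0.106 to 0.487% elsewhere. miR-206-3p, a skeletal muscle miRNA, had 275 counts in hypoxia replicate 1, 42 and 27 in the other hypoxia libraries, and 61 in normoxia replicate 1, where miR-486 is highest. No count of miR-206-3p was listed in normoxia replicates 2 and 3, where miR-486 had 28 and 103. Hypoxia replicate 1 left blank 25 of the 81 sequences that all other libraries list, so its blank for miR-486 is not particular to miR-486. The muscle miRNAs miR-1-3p (mean 26.8 CPM) and miR-499-5p (mean 42.6 CPM) also had a row and were not set out by library. The part of muscle RNA in the level of miR-486 was not tested.

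miR-144-5p was the scarcest of the 6. It had 5 and 23 counts in hypoxia replicates 2 and 3, 11 and 24 in normoxia replicates 1 and 3, and none listed in the remaining libraries, 1 of each group. Its cluster partner miR-451-5p, which Argonaute-2 itself cuts and which is among the most abundant miRNAs of mature red cells, had 20 counts in hypoxia replicate 3 and 24 in normoxia replicate 2. Only hypoxia replicate 3 listed both, although both come from 1 transcript. At counts of 24 or fewer, a blank for 1 of the partners cannot show that they differ. At 33.0 CPM on average miR-451-5p stood below miR-144-5p and below miR-486. The red-cell list had 12 miRNAs, of which 7 had a row. Their summed share was 0, 0.0692 and 0.0833% in the hypoxia libraries and 0.175, 0.0672 and 0.0951% in the normoxia libraries. Most of it was miR-486 and miR-16-5p, and neither was taken as a mark of red cells alone.

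miR-16-5p was the only one of the 6 whose groups did not overlap on this scale. It had no listed count in hypoxia replicate 1, then 23 and 32, against 48, 86 and 37 in the normoxia libraries. Scaled for depth, the highest hypoxia value was 170.1 CPM, in replicate 2, and the lowest normoxia value 179.9 CPM, in replicate 3, so the gap was small. Groups that did not overlap, with hypoxia lower, were found for 7.48% of the 107 tested sequences, 8 in all, and groups apart with hypoxia higher for 0%. The gap was also present with RLE factors, where 5.61% had hypoxia lower and 0.935% higher, and with library totals only, where the shares were 4.67% and 2.8%. With upper-quartile factors (4.67% lower and 1.87% higher) and in the authors' normalized table (3.74% lower and 2.8% higher) the groups of miR-16-5p overlapped.

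miR-16-5p was also set against miR-23a-3p, a miRNA often used as a denominator because red cells hold little of it. The log2 ratio of their counts was -2.08 and -1.85 in hypoxia replicates 2 and 3 and -0.42, -0.75 and -0.08 in the normoxia libraries, and hypoxia replicate 1 listed neither. The denominator, miR-23a-3p, is itself on the stromal list. It had 97 and 115 counts in hypoxia replicates 2 and 3 and 64, 145 and 39 in the normoxia libraries. The ratio of -0.08 belongs to normoxia replicate 3, where miR-23a-3p had the fewest counts of these 5 libraries. The values above are those of a single ratio, with no comparison against other ratios. For miR-451-5p the ratio could be formed in 2 libraries and was -2.52 in hypoxia replicate 3 and -2.59 in normoxia replicate 2. For each count of miR-16-5p there were 2.06 to 3.06 counts of miR-486 in 4 of the 5 libraries that list both, and 0.326 in normoxia replicate 2. Both are blank in hypoxia replicate 1.

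The seed of miR-16-5p was shared by 3 other annotated sequences, which can act on the same targets and are shown for that reason.
miR-15b-5p: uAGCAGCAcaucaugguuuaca
miR-195-5p: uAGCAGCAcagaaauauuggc
miR-497-5p: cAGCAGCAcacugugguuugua
miR-15b-5p, the partner of miR-16 in the Smc4 gene, had 52 counts in normoxia replicate 3 alone. miR-195-5p had 9 counts in hypoxia replicate 2 alone, and miR-497-5p, made from the same cluster as miR-195, had 10 and 27 counts in hypoxia replicates 2 and 3 alone. The scarce family members were thus listed in libraries other than those where miR-16-5p was highest, normoxia replicates 1 and 2. No annotated sequence shared a seed with any of the other 5 miRNAs.

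The serum-borne miR-423-5p was listed in every library. It had 217, 109 and 215 counts in the hypoxia libraries and 138, 54 and 134 in the normoxia libraries. Its share was 0.183% (95% exact binomial interval 0.159 to 0.209%) in hypoxia replicate 1 and 0.129% (0.108 to 0.152%) in normoxia replicate 1. As with miR-122-5p, these were the libraries with the fewest counts, and the remaining shares lay between 0.0263% and 0.0865%. The other arm of its hairpin, miR-423-3p, had 36 and 17 counts in hypoxia replicates 2 and 3, 40 and 34 in normoxia replicates 2 and 3, and none listed in the replicate 1 of either group. The 5p arm outnumbered the 3p arm 1.35-fold to 12.6-fold where both were listed.

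**Figure D3:**
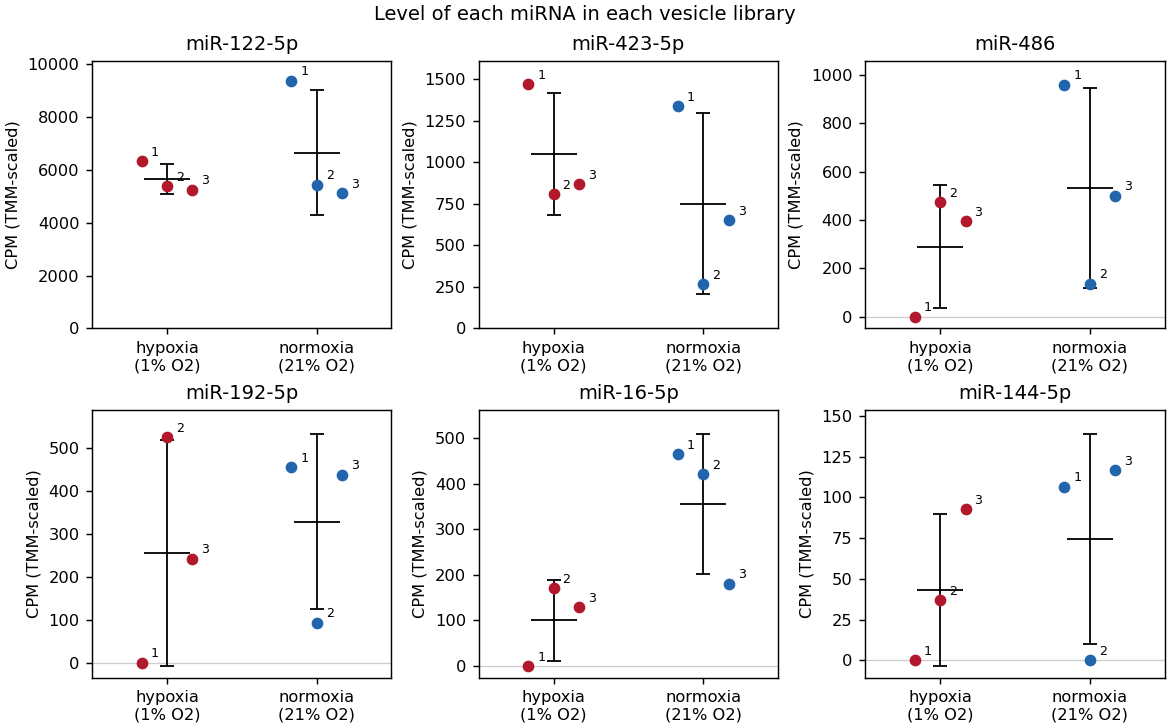
Level of each of the 6 miRNAs in each library (TMM-scaled CPM, numbered by replicate), with the group mean and SD as bars (n = 3 each). Hypoxia replicate 1 has the highest hypoxia level of miR-122-5p and miR-423-5p and is at 0 for the other 4. Of the 6, the groups are apart for miR-16-5p alone, as they are, with hypoxia lower, for 7.48% of the 107 tested sequences. The groups of miR-16-5p overlap with upper-quartile factors and in the authors' normalized table.

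The blank cells can be set beside the counts that the listed shares would give at the same depth. At the lowest share listed in any other library, hypoxia replicate 1 would hold 11.0 counts of miR-192-5p, 16.2 of miR-486, 15.3 of miR-16-5p and 4.07 of miR-144-5p. At the median listed share it would hold 47.0, 52.0, 19.3 and 11.6 counts of these 4 in the same order. The smallest count that this library lists is 2. miR-144-5p is also blank in normoxia replicate 2, where its lowest listed share elsewhere would give 7.04 counts and the smallest listed count is 7.

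The comparison of 1% with 21% oxygen asks which vesicle miRNAs differ with the oxygen given to the cells. In edgeR's quasi-likelihood test none of the 6 had a Benjamini-Hochberg adjusted p under 0.05, where 0% of the 107 tested sequences did. All 6 were among the 107 that passed the filter on low counts. At an unadjusted p under 0.05 edgeR gave 0 of the 6 and 1 sequence in all (0.935%), while DESeq2 gave 0 of the 6 and 1 of the 107, and limma-voom 0 of the 6 and 4 of the 107. The adjusted p of each of the 6 in edgeR was 0.998.

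The widths of the intervals differed greatly. Fold changes are log2 values of hypoxia over normoxia. Their SEs and intervals were worked back from the test statistic and are approximate. For miR-122-5p the value was -0.23 (SE 0.38), with a 95% interval of -1.06 to 0.59. For miR-423-5p it was 0.48 (SE 0.82), with an interval of -1.28 to 2.25, and the level was 1047 ± 366 CPM in hypoxia and 751 ± 543 CPM in normoxia (SD, n = 3 each). These 2 miRNAs had counts in every library and the narrowest intervals of the 6, and a change of a few fold in miR-423-5p would still lie inside its interval.

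The 4 miRNAs with blank cells could not be placed within several fold in either direction. For miR-486 the log2 fold change was -0.87 (SE 1.72), with an interval of -4.58 to 2.83, at 289 ± 254 against 532 ± 412 CPM (hypoxia against normoxia, SD, n = 3 each). For miR-192-5p it was -0.36 (SE 1.76), with an interval of -4.16 to 3.43, at 256 ± 263 against 329 ± 204 CPM (SD, n = 3 each). For miR-16-5p it was -1.82 (SE 1.75), with an interval of -5.60 to 1.96, at 99.7 ± 88.7 against 355 ± 153 CPM (SD, n = 3 each). For miR-144-5p it was -0.75 (SE 2.41), with an interval of -5.94 to 4.44, at 43.2 ± 46.7 against 74.4 ± 64.7 CPM (SD, n = 3 each).

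**Figure D4:**
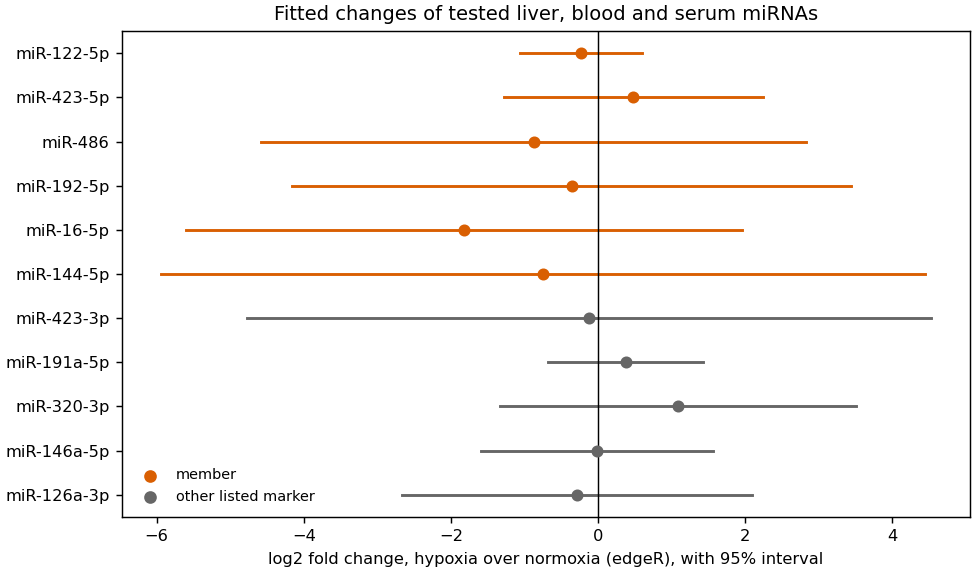
Fitted log2 fold change, hypoxia over normoxia, with a 95% interval derived from the edgeR test. The 6 miRNAs are in orange and the other tested miRNAs of the liver, red-cell, serum-borne and white-cell lists in grey. Every interval spans 0, and those of miR-122-5p and miR-423-5p are the narrowest of the 6.

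The fitted values of the 4 scarcer miRNAs moved toward 0 or past it when hypoxia replicate 1 was left out. All 4 are blank in that library and were taken as 0 there. Leaving it out could therefore only raise their hypoxia means, and the direction of this move is not a result. Without it miR-192-5p had 0.46 (SE 0.90) in place of -0.36, miR-486 had -0.07 (SE 0.86) in place of -0.87, and miR-144-5p had -0.01 (SE 2.53) in place of -0.75. miR-16-5p had -1.01 (SE 0.92), still below 0, with an adjusted p of 0.974 in edgeR. The hypoxia means without that library were 383 CPM for miR-192-5p, 434 for miR-486, 149.5 for miR-16-5p and 64.8 for miR-144-5p. For miR-122-5p and miR-423-5p the values without it were -0.10 (SE 0.38) and 0.37 (SE 0.73). The sign of miR-122-5p depended on another library, since without normoxia replicate 1 it was 0.19 (SE 0.53). That of miR-192-5p was also above 0 without normoxia replicate 3, at 0.02 (SE 2.65).

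**Figure D5:**
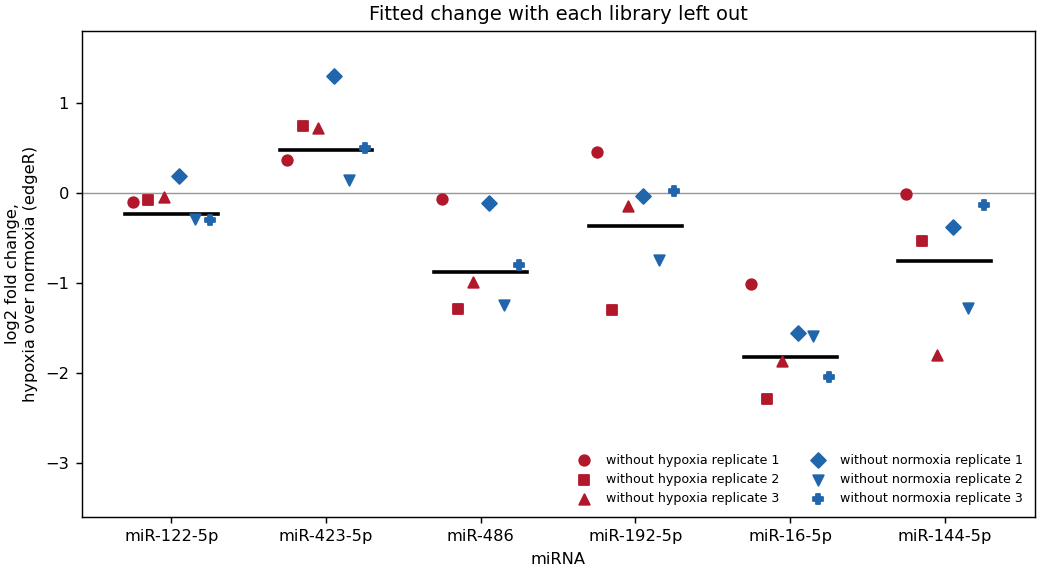
Fitted log2 fold change of each miRNA, hypoxia over normoxia, with each library left out in turn (points) and with all 6 (black line). miR-16-5p stays below 0 in all 6 refits, from -2.29 to -1.01, and miR-423-5p above 0, from 0.15 to 1.30.

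As a group the 6 miRNAs had 1 fitted value above 0 and 5 below, with a median of -0.56, where the 107 tested sequences had 44 above and 63 below, and -0.14 as their median. With hypoxia replicate 1 left out the counts were 2 above and 4 below, with a median of -0.04, and the median over the 130 sequences then tested was 0.15. The red-cell list had 3 tested members, all among the 6, with 0 above and 3 below and a median of -0.87, which was -0.07 without hypoxia replicate 1. Of the 7 tested members of the serum-borne list 3 were above 0 and 4 below, and their median was -0.12. Its tested members outside the 6 were miR-191a-5p at 0.37 (SE 0.49), miR-320-3p at 1.09 (SE 0.99) and miR-423-3p at -0.12 (SE 2.16). Its untested members with a row were miR-484, with 18 counts in normoxia replicate 1 alone, and miR-93-5p, with 15 in hypoxia replicate 2 alone. The summed share of the serum-borne list in hypoxia replicate 1, 16.6%, was nearly all miR-320-3p (15.4%). No member of any list passed the test.

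Markers of white cells and platelets were set beside the red-cell miRNAs. Of the 8 on this list 4 had a row, and 2 of these were scarce. miR-223-5p, the less abundant arm of a myeloid miRNA, was not on the list and was added after its values were seen. It had 8 and 60 counts in hypoxia replicates 2 and 3, 25 and 12 in normoxia replicates 1 and 3, and none listed in hypoxia replicate 1 and normoxia replicate 2. miR-150-5p, a lymphocyte miRNA, had 4 counts in hypoxia replicate 3 and 2 in normoxia replicate 3. miR-155-5p, induced in activated white cells, had 3 in hypoxia replicate 2 and 21 in normoxia replicate 1. miR-146a-5p and the endothelial and platelet miRNA miR-126a-3p were listed in all 6 libraries, and brought the list to 0.118 to 0.246% of counts in each. The normoxia libraries covered that whole range and the hypoxia libraries lay within it, at 0.128 to 0.181%. Their fitted values were -0.02 (SE 0.73) for miR-146a-5p and -0.29 (SE 1.10) for miR-126a-3p. miR-142, miR-223-3p, miR-92a-3p, miR-15a-5p and miR-144-3p were not analysed here.

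The profiles most like those of the 2 miRNAs listed throughout were found among the 53 other annotated miRNAs listed in all 6 libraries, by the mean absolute difference between centred log2 profiles over the 6 libraries. For miR-122-5p the nearest were let-7b-5p, at 0.22, let-7c-5p, at 0.27, and miR-25-3p, at 0.27, where the median over the 53 was 0.53. let-7b-5p, a differentiation-linked miRNA, was like miR-122-5p highest in normoxia replicate 1, but lowest in hypoxia replicate 1, where miR-122-5p was next highest. For miR-423-5p the nearest were miR-674-3p, at 0.34, miR-31a-5p, at 0.36, and miR-30a-5p, at 0.39, where the median was 0.82. All of these had their lowest or next to lowest level in normoxia replicate 2, as miR-423-5p did. The profiles share their libraries and scaling, so these distances are a description.

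Whether any count came from the serum, from blood cells in the marrow flush or from the stromal cells was not tested. The labels state 10% fetal bovine serum for both groups alike. The reads were not compared with bovine sequence here. Whether such a comparison could tell bovine from rat copies of these short sequences was not examined.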

How the data were processed

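Small RNA of extracellular vesicles was sequenced in 6 libraries, 3 per group. Per the labels' protocols, miRNA was purified from vesicle RNA, adaptors were ligated, and the amplified, size-selected libraries were run on a HiSeq. The submitters' processing notes name Novoalign 3.02.12, cutadapt 1.9.3 and build rn6 without saying what each was used for. How tags were counted and filtered is not given in the sources used here. Per the file headers, the authors deposited raw tag counts per mature miRNA. They also deposited normalized tag counts, which are whole numbers near the count times 1 factor per library (1.04 to 2.34) by a method not stated, and were treated as a score and used in an alternative only.

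Blank cells were taken as 0. No listed count was below 2 (below 7 in normoxia replicate 2). A minimum for listing is therefore possible, and no upper limit is given for a blank. The 353 rows were merged to 311 distinct mature sequences. Rows repeated over precursors held identical counts. Totals were 106954 to 248542 counts, which leaves most sequences with few counts.

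The test on counts used edgeR 4.0.16 (R 4.3.3), with TMM factors (0.905 to 1.25), filterByExpr (minimum count 10, minimum total 15; 107 of 311 sequences kept), robust glmQLFit and glmQLFTest, and Benjamini-Hochberg adjustment over the 107. The common biological coefficient of variation was 1.07. The test gives no standard error. The SE printed is the size of the fold change divided by the square root of the test's F statistic, and the intervals were built from it. Both are approximate, above all for miRNAs with blank cells. Levels and lists got no test of their own. Exact binomial intervals came from scipy 1.17.1. Profiles were compared as log2 of CPM plus 1. Alternatives were other scaling factors and filters, DESeq2 1.42.0, limma 3.58.1 (voom, and on log2 of the normalized values plus 1 or plus 10), a block for the replicate number, and each library left out.

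The 6 miRNAs, the lists and the tests were chosen with earlier results of these data known. The miRNAs named besides the 6 follow a rule: the other arms and cluster partners, sequences with the same seed, the 3 nearest profiles, listed members of the lists, and the reference miRNAs miR-23a-3p and miR-21-5p. miR-1b, miR-206-3p, miR-1-3p, miR-499-5p, miR-223-5p and miR-143-3p were named after their values were seen. Mature sequences are as deposited, and 5 of 6 were identical in RefSeq (GRCr8), which also gave positions and neighbouring genes.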

Additional observations from a re-analysis of the deposited data

How the results depend on the processing

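At an adjusted p under 0.05, no sequence and no member of any list was called in the 16 alternatives, nor was any of the 6 miRNAs at an unadjusted p under 0.05, where 0 to 6 of all sequences were (6 of 311 unfiltered). Over those that could be run, the lowest adjusted p of the 6 was 0.695, for miR-16-5p in the unfiltered fit. Requiring a mean count of 50 left 3 of the 6. The sign held in every alternative for miR-16-5p (-2.79 to -1.01), miR-486 (-2.08 to -0.07), miR-144-5p (-1.81 to -0.01) and miR-423-5p (0.15 to 1.30). With each library left out, miR-122-5p ran from -0.30 to 0.19 and miR-192-5p from -1.30 to 0.46, and the cause was not tested. In no other alternative did either change sign. The serum-borne median of -0.12 became 0.018 with upper-quartile factors and 0.53 with a mean count of at least 50, where fewer members are tested, and ran from -0.082 to 0.33 with each library left out. The median of the 6 ran from -1.08 (authors' table, plus 1) to -0.04, and that of the red-cell list from -2.08 (the same) to -0.07, the upper values both without hypoxia replicate 1. Mean levels moved by less than 1 SD with other scalings, with a library left out, and with blank cells left out, the last chosen after seeing the data. With SDs near the mean this allows large moves. Leaving out 1 library took miR-192-5p under hypoxia from 256 to 121 CPM (without replicate 2), miR-16-5p under hypoxia from 99.7 to 64.5 (without replicate 2), miR-144-5p under hypoxia from 43.2 to 18.5 (without replicate 3), miR-486 under normoxia from 532 to 319 (without replicate 1) and miR-423-5p under normoxia from 751 to 458 (without replicate 1). Leaving out hypoxia replicate 1 raised the 4 means in which it is blank by 1.5 times, as dropping a 0 from 3 values must. The number of tested sequences whose groups did not overlap was 7 to 8 over 5 scalings, a comparison also added after seeing the data.

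The groups share replicate numbers, but same-numbered libraries deviated together only in part, with correlations of 0.19, 0.00 and 0.19 over the 107 sequences, so the numbers were not taken as pairs, and not every library was nearest to its own number. With the number as a block, 0 sequences were called, and miR-122-5p had -0.18 and miR-16-5p -2.36.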
